A study of Mus musculus with 12 samples.

Results

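The response of the pancreas to cerulein was compared with saline in mice labelled Atf3-/-, over all genes, in the 6 libraries of that label among the 12 of the series. Members were taken by their titles. The 3 cerulein libraries are C2, C3 and L4, and the 3 saline libraries are S1, K4 and Q1. Each library is whole pancreas of 1 animal, 2 to 4 months old, from a congenic Atf3-/- line on C57Bl6. Cerulein (50 ug/kg) or saline was given in 4 injections and the tissue was taken at 4 h. The other 6 libraries are wild-type C57Bl6 mice under the same treatments, with W1, K5 and R3 given saline and O1, O3 and N3 given cerulein. They enter only where the 2 genotype labels are compared or the spread is estimated. The question of this comparison is which genes respond to cerulein where Atf3 is said to be absent.

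Cerulein is an analogue of cholecystokinin, the gut hormone that makes acinar cells of the pancreas release their stored digestive enzymes through a Gq-coupled receptor and rises of cytosolic calcium. At doses above those that drive maximal secretion it blocks exocytosis, activates trypsinogen inside the cell and causes acute pancreatitis. Atf3 is a stress-induced transcription factor of the ATF/CREB family, known as a target of the integrated stress response. Acinar cells make most of the RNA of the organ, so a bulk measurement follows mainly their programmes.

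Values are CPM, that is read counts scaled to 1e+06 reads, with library sizes adjusted by TMM, and a fold change is log2 of cerulein over saline with its standard error after ±. Totals in the 6 libraries ran from 20836916 to 32158629 counts. Digestive enzymes and secretory proteins, the markers of acinar cells, took 67.1% to 71.7% of all counts in the saline libraries, 57.4% in C2, 55.7% in L4 and 67.9% in C3. In whole tissue, fewer cells of a type and less RNA per cell cannot be told apart.

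Atf3 itself (ENSMUSG00000026628, GRCm38 chromosome 1, 191170296 to 191218039, minus strand) was counted in every library labelled knockout. It stood at 23.1, 7.43 and 13.5 CPM in S1, K4 and Q1, 1374 CPM in C2, 1634 CPM in L4 and 20.7 CPM in C3. C2 and L4 were far above all saline libraries, and C3 lay inside their range. The gain without C3 was 6.68 ± 0.66 (adjusted p = 8.84e-05), and it was 6.11 ± 1.27 log2 units with all 6 libraries (adjusted p = 0.0860). Which part of the gene is deleted in the line is not given in the sources used here, and gene counts do not show it. The counts therefore do not check the genotype label, and the libraries are called by their labels.

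With all 6 libraries, no gene passed an adjusted p of 0.05 in either direction (0.0% higher and 0.0% lower of 14329 genes, edgeR's quasi-likelihood test). At an unadjusted p below 0.05 there were 3256 genes, and the smallest adjusted p was 0.0860. On the same libraries limma-voom gave 0 genes and DESeq2 gave 1239 higher and 120 lower. Of those 1359 genes, 1341 also passed by edgeR in the same direction when C3 was left out. That is 98.7% of the DESeq2 calls and 31.1% of the calls without C3. Both fits hold C2, L4 and the same saline libraries, so this overlap is not independent support.

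Without C3, 2756 genes were higher and 1550 lower with cerulein, or 18.7% and 10.5% of 14733 genes tested. These shares are the background for every count of a gene group below. C3 was left out because its values had been seen to resemble saline, so p-values without it are conditional on a choice made from the outcome. With library scaling that ignores the 50 most abundant genes, 2331 genes were higher and 2048 lower. The share of calls that were higher moved from 64.0% to 53.2% and the median of all genes by -0.12 on the log2 scale. Below, "rose" and "fell" mean an adjusted p below 0.05 by edgeR's quasi-likelihood test without C3, with 3 saline and 2 cerulein libraries. None of these genes passed by that test with all 6.

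C3 lay with the saline libraries over the genes that passed without it. Each of these genes was given a position with the saline mean at 0 and the mean of C2 and L4 at 1, on log2 CPM. Over the 2756 genes that rose, the median position of C3 was 0.05, and over the 1550 that fell it was -0.01. The wild-type saline libraries had medians from -0.04 to 0.01 on the first set and from -0.06 to 0.01 on the second, and the wild-type cerulein libraries from 0.81 to 1.11 and from 0.97 to 1.04. Among the 4275 genes that passed and whose libraries did not overlap between groups, C3 was inside the saline range for 53.8%, between the groups for 26.6%, beyond saline on the other side for 19.0% and level with or past C2 and L4 for 0.678%. The same shares were not computed for a further saline library. A place between the groups is therefore not read as a partial response.

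**Figure D1:**
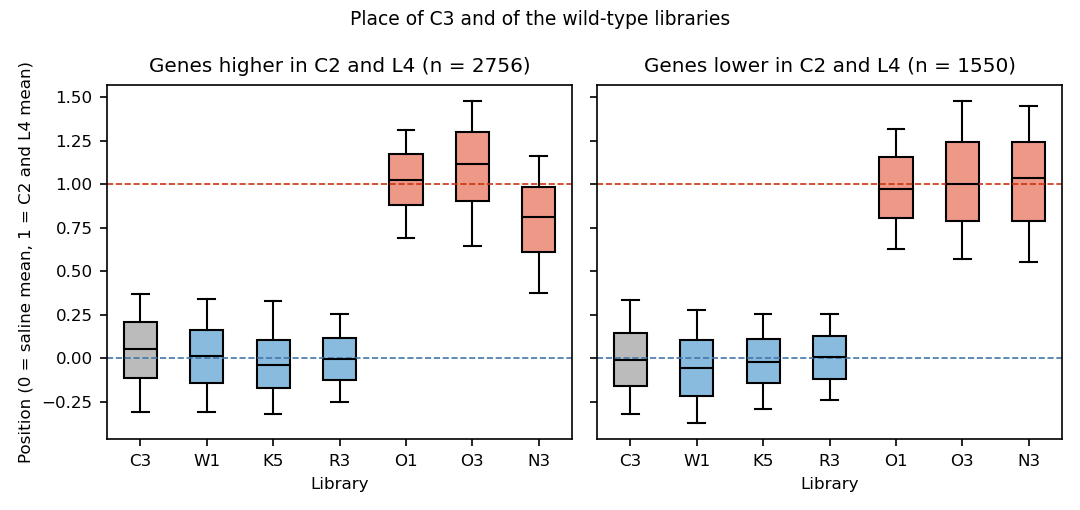
Position of C3 and of the 6 wild-type libraries between the labelled-knockout saline mean (0, blue line) and the mean of C2 and L4 (1, red line) on log2 CPM, for genes higher (left) and lower (right) without C3. Boxes span the quartiles, the bar is the median and whiskers reach the 10th and 90th percentiles over genes. The C3 medians, 0.05 and -0.01, lie beside those of the wild-type saline libraries.

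Pairs of libraries showed the same order. Over the 4306 genes that passed, the median absolute log2 difference between C3 and S1 was 0.17, and between C3 and the other saline libraries 0.30 (K4) and 0.24 (Q1). Pairs of saline libraries differed by 0.25 to 0.28 and C2 from L4 by 0.26. C3 differed from C2 by 1.08 and from L4 by 1.11. The genes had passed on the difference of C2 and L4 from the saline libraries, which favours small differences within those groups. The values of C3 did not enter the test that chose the genes. They were the reason that C3 was left out, so its nearness to saline over these genes is no independent check.

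The next genes were picked for the nearness of C3 to C2 and L4, so that nearness is not itself a result. Of genes that passed with an absolute log2 change of at least 2 and a mean of at least 5 CPM, the 6 in which C3 lay nearest to C2 and L4 were Prss1, Nes, Tle4, Entpd3, Hspbap1 and Cfap53. The call of Entpd3 was lost without L4 (adjusted p = 0.278), that of Hspbap1 without C2 (0.0838) and that of Cfap53 without C2 (0.996), K4 (0.0740) or Q1 (0.0858). Prss1, a trypsinogen gene, stood at 5.02, 1.38 and 3.45 CPM in S1, K4 and Q1, 51.9 CPM in C2, 47.0 CPM in L4 and 12.1 CPM in C3, so C3 was above every saline library and at 0.50 of the way to C2 and L4. Tle4, which encodes a Groucho-type corepressor, had 8.41, 5.39 and 7.03 CPM in S1, K4 and Q1, 25.9 CPM in C2, 51.4 CPM in L4 and 12.8 CPM in C3. For Nes, the intermediate filament nestin, C3 (62.7 CPM) stood close to S1 (60.0 CPM), while C2 and L4 were at 265 and 175 CPM. Over the members that passed, the highest median positions of C3 among the programmes were 0.17 for both ribosome biogenesis and the cytosolic tRNA synthetases. On those 2 programmes the wild-type saline libraries W1 and K5 lay at 0.12 and -0.20 for the first, and at 0.05 and -0.06 for the second.

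Of the 9 cell-type marker lists, 7 had a lower sum in C3 than in any saline library of this label. Neutrophil and fibroblast markers were inside the saline range (fibroblast 276 CPM against 259 to 527 CPM), and endothelial markers were little below it (176 against 189 to 198 CPM). Summed lymphocyte markers were 3.28 CPM in C3 and 2.57 CPM in C2, against 30.1 CPM in L4 and 17.4 to 280.1 CPM in saline. Summed islet markers were 481 CPM in C3 and 824 to 1220.2 CPM in saline. Summed erythroid markers were 23.3 CPM in C3 and 72.1 to 262 CPM in saline. Why C3 resembles saline was not tested.

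Responses were then read by gene programme. Of 30 programmes, 10 had most of their tested members higher and 2 had most lower. Highest by share were the integrated stress response, immediate early genes, and actin cytoskeleton and SRF targets. Those with most members lower were fatty acid oxidation and acinar amino acid metabolism, though 3 of 12 rose in the second. Not all of these majorities held in the alternatives. With the labelled-knockout libraries alone, NRF2 targets had 7 of 15 higher and acinar amino acid metabolism 6 of 12 lower. With no filter the latter had 5 of 12 lower. Over all genes tested the median log2 fold change was 0.0022.

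**Figure D2:**
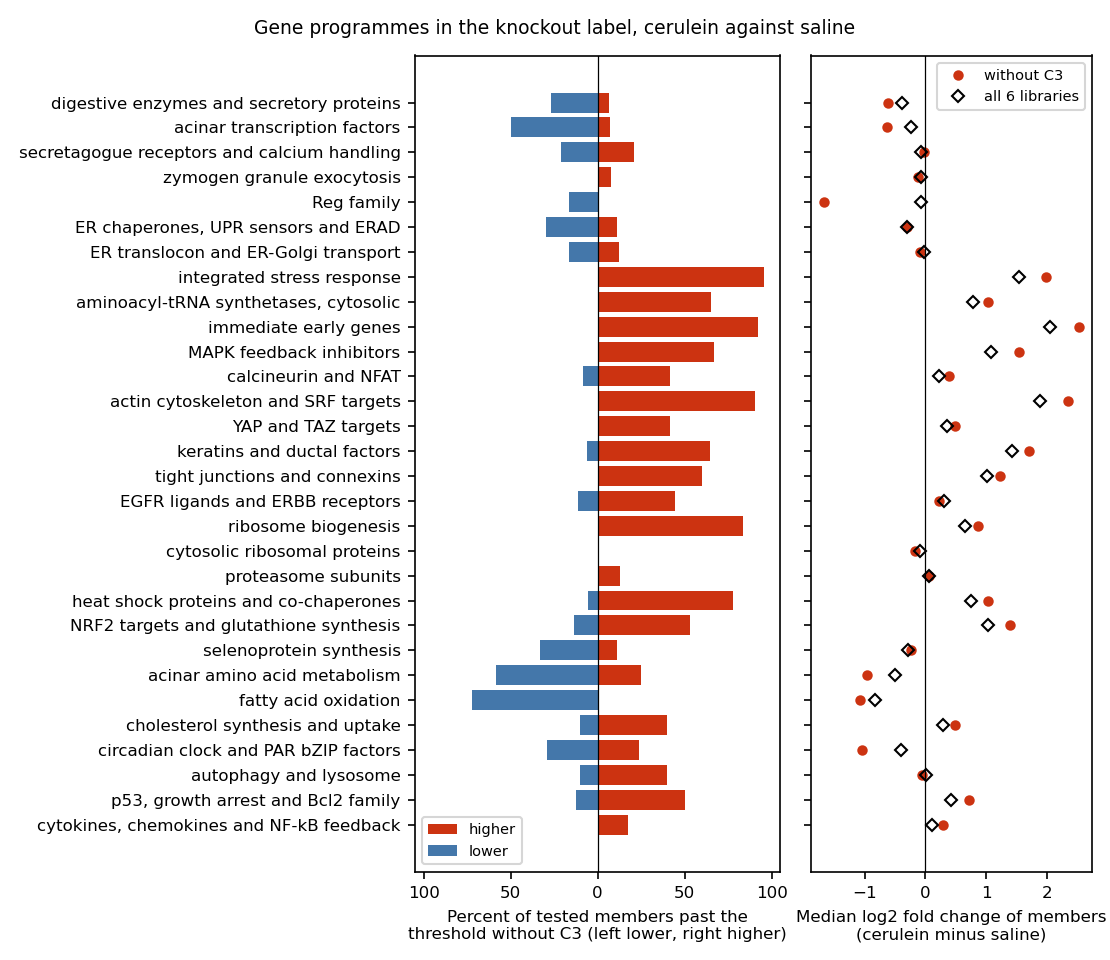
Left, percent of the tested members of 30 gene programmes past the threshold without C3, lower to the left in blue and higher to the right in red. Right, median log2 fold change of the members without C3 (circles) and with all 6 libraries (diamonds), for example 1.99 and 1.55 for the integrated stress response.

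Several of the largest rises were from levels near the detection limit. Kel, which encodes an endothelin-processing metalloprotease of the Kell blood group, stood at 0.209, 0 and 0.119 CPM in S1, K4 and Q1, 218 CPM in C2, 264 CPM in L4 and 0.0937 CPM in C3 (log2 fold change 11.02 ± 0.57, adjusted p = 1.61e-06). Tac1, the precursor of the neuropeptide substance P, had 0.335, 0.0890 and 0 CPM in S1, K4 and Q1, 32.8 CPM in C2, 216 CPM in L4 and 0.234 CPM in C3 (log2 fold change 9.60 ± 1.02, adjusted p = 0.000161). The groups were far apart in both genes, and C3 was among the saline libraries. Lif, an interleukin-6 family cytokine (GRCm38 chromosome 11, 4257557 to 4272514, plus strand), stood at 1.30, 0.846 and 0.476 CPM in S1, K4 and Q1, 261 CPM in C2, 412 CPM in L4 and 0.937 CPM in C3 (log2 fold change 8.55 ± 0.42, adjusted p = 1.59e-06). Prss56, a serine protease gene, had no count in the 3 saline libraries or C3 and 281 counts in C2 and L4, at least 91.1-fold higher against a floor of 3 counts over the group. Prph2, a disc protein of photoreceptors, was likewise at 0 counts in saline and at 0.151 CPM in C2 and 7.52 CPM in L4. That is at least 95.0-fold, and most of the counts were from L4. Without L4 the adjusted p was 0.0846, and without K4, Q1 or S1 the call was also lost (0.0754, 0.0578 and 0.0757). Sprr1a, a cornified envelope protein seen in injured tissue, had 2 counts in saline and 733 in C2 and L4, a ratio of 356 (95% counting interval 98.3 to 2949), with 0.604 CPM in C2 and 18.6 CPM in L4. Counting intervals and floors cover counting error only.

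Large falls were seen in secreted, metabolic and regulatory genes. Sostdc1, a secreted BMP and Wnt antagonist, had 7.49, 14.7 and 10.8 CPM in S1, K4 and Q1, 0.0755 CPM in C2, 0.208 CPM in L4 and 8.95 CPM in C3 (log2 fold change -6.14 ± 0.49, adjusted p = 2.06e-05). Upp2, a uridine phosphorylase, stood at 101, 21.1 and 53.5 CPM in S1, K4 and Q1, 1.21 CPM in C2, 0.832 CPM in L4 and 86.8 CPM in C3 (log2 fold change -5.85 ± 0.68, adjusted p = 0.000235). In both genes C2 and L4 lay far below every saline library, and C3 was inside the saline range. Cyp4f15, a cytochrome P450 of fatty acid hydroxylation, changed by -5.29 ± 0.75, Susd3 by -5.26 ± 0.73 and Fam13a by -5.35 ± 0.84 log2 units. Hif3a, a hypoxia-inducible factor subunit, changed by -4.43 ± 0.47 and Slc25a34, a mitochondrial carrier, by -4.26 ± 0.52 log2 units. In Slc25a34, C3 (0.750 CPM) lay below the saline range of 1.26 to 2.98 CPM.

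Single members of the secretagogue receptor and calcium handling list responded strongly, while the list as a whole had 4 of 19 tested members higher, a share near that of all genes, and 4 lower. Its median was -0.03 and ran from -0.14 without Q1 to 0.05 without K4, and 2 were higher without L4. Cckar, the cholecystokinin receptor that cerulein binds (GRCm38 chromosome 5, 53697776 to 53707705, minus strand), stood at 306, 267 and 300.2 CPM in S1, K4 and Q1, 35.3 CPM in C2, 7.60 CPM in L4 and 351 CPM in C3 (log2 fold change -3.77 ± 0.53, adjusted p = 0.000606). C3 had the highest level of the 6 libraries and C2 and L4 the lowest. Atp2c2, a secretory pathway calcium pump, fell by 1.87 on the log2 scale (SE 0.34). Atp2a2, the SERCA2 pump that refills the endoplasmic reticulum (ER), rose from 90.7, 97.1 and 112 CPM to 239 CPM in C2 and 293 CPM in L4, with 85.2 CPM in C3 (log2 fold change 1.41 ± 0.17, adjusted p = 0.000224). Trpv6, an epithelial calcium channel, had 1.97, 1.16 and 0.715 CPM in S1, K4 and Q1, 35.8 CPM in C2, 22.6 CPM in L4 and 1.03 CPM in C3 (log2 fold change 4.48 ± 0.49, adjusted p = 0.000151).

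Calcineurin is the phosphatase that calcium activates and that moves NFAT factors to the nucleus. Rcan1, its feedback inhibitor and a known NFAT target (GRCm38 chromosome 16, 92391953 to 92470867, minus strand), stood at 13.1, 12.4 and 7.44 CPM in S1, K4 and Q1, 2426 CPM in C2, 2427 CPM in L4 and 10.7 CPM in C3. The groups did not overlap and C3 lay inside saline (log2 fold change 7.79 ± 0.38, adjusted p = 1.59e-06). Of 12 members of the list 5 rose and 1 fell, with 3 higher without C2, K4 or S1, and 2 lower without C2 and 0 without L4. Nfatc4 rose by 2.16 ± 0.30 and Rcan3 by 1.93 ± 0.29 log2 units. Nfatc3 changed by -1.21 ± 0.28 log2 units (adjusted p = 0.00821, and 0.0541 without L4).

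Immediate early genes, which growth factor and calcium signals switch on without new protein synthesis, rose almost as a group. Of 25 tested 23 were higher and none lower, with a median log2 fold change of 2.53. Arc, a cytoskeleton-associated immediate early gene, stood at 0.711, 0.534 and 0.715 CPM in S1, K4 and Q1, 86.0 CPM in C2, 575 CPM in L4 and 1.31 CPM in C3 (log2 fold change 8.98 ± 0.92, adjusted p = 0.000131). Egr1, a zinc finger factor, rose by 5.83 ± 0.85 log2 units. Fosl1, an AP-1 subunit, had 1.72, 1.65 and 0.0596 CPM in S1, K4 and Q1, 66.8 CPM in C2, 88.6 CPM in L4 and 0.375 CPM in C3 (log2 fold change 6.02 ± 0.75, adjusted p = 0.000389). Fos stood at 2.30, 2.45 and 0.357 CPM in S1, K4 and Q1, 27.0 CPM in C2, 59.9 CPM in L4 and 0.844 CPM in C3 (log2 fold change 4.63 ± 0.63, adjusted p = 0.000624). C2 and L4 were above saline in each of Arc, Fosl1 and Fos, with L4 higher than C2. C3 was inside the saline range in Fosl1 and Fos and above it in Arc. Of the MAPK feedback inhibitors, which are themselves induced by ERK, 10 of 15 rose and none fell (median 1.55, and 2.46 without K4). Dusp5, a nuclear ERK phosphatase, had 1.88, 2.31 and 0.715 CPM in S1, K4 and Q1, 88.4 CPM in C2, 234 CPM in L4 and 1.03 CPM in C3 (log2 fold change 6.59 ± 0.58, adjusted p = 4.88e-05), Dusp1 rose by 3.75 ± 0.34 and Dusp14 by 4.04 ± 0.57. Dusp4 rested on L4 (10.5 CPM against 0.491 CPM in C2), and without L4 its adjusted p was 0.657.

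**Figure D3:**
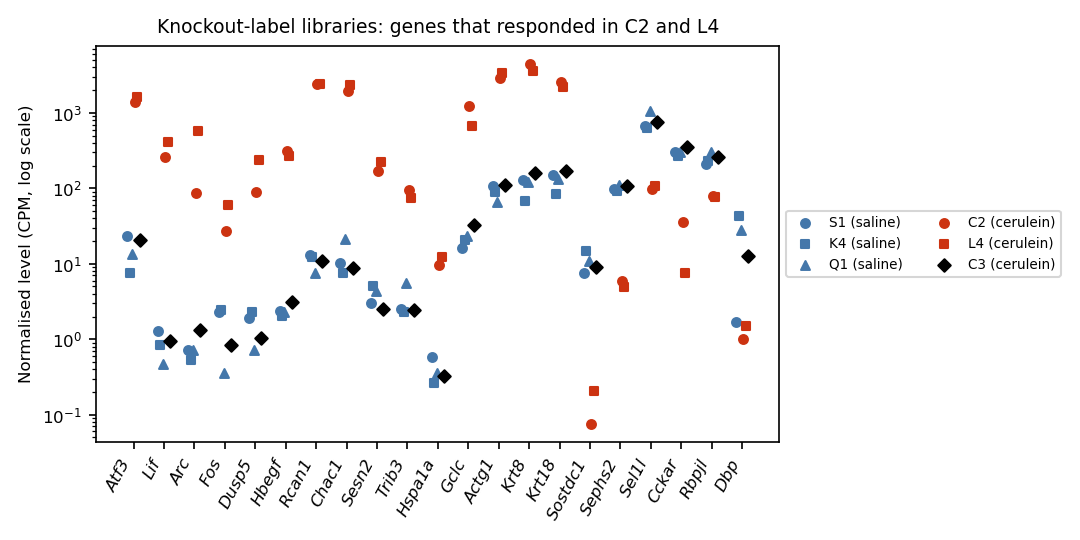
Normalised level (CPM, log scale) of 21 genes in the saline libraries S1, K4 and Q1 (blue), in C2 and L4 (red circle and square) and in C3 (black diamond). C2 and L4 lie outside the saline range in every gene plotted, narrowly in Dbp (S1 at 1.72 CPM, L4 at 1.48 CPM), and C3 lies in that range or nearer to it than to C2 and L4.

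Serum response factor (SRF) binds the CArG box in promoters of immediate early and cytoskeletal genes. The promoters of Egr2 and Srf are shown because both genes rose (Egr2 by 3.85 ± 0.86, lost without L4 at an adjusted p of 0.0762, and Srf by 2.75 ± 0.17 log2 units) and their RefSeq promoters (GRCm38.p6, 250 bases before the start site) hold CArG boxes, in capitals. This pairing of motif and list was made after values were seen. For Egr2 the stretch is chr10:67537316-67537565 on the plus strand, with the match beginning 72 bases before the start. For Srf it is chr17:46556163-46556412 on the minus strand, with matches beginning 82 and 62 bases before.
Egr2: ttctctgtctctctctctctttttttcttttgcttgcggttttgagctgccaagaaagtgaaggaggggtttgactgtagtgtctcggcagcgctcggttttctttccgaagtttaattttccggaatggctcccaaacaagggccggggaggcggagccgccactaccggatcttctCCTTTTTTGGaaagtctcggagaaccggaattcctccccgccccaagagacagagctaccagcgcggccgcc
Srf: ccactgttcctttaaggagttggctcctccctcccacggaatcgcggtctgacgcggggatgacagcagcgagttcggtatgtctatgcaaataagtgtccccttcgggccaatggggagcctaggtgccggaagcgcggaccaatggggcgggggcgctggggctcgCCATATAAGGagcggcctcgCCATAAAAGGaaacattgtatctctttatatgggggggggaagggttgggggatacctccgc
Over promoters of 300 bases (250 before to 50 after the start), a CArG box on either strand was in 6 of 25 promoters of immediate early genes (24.0%) and 5 of 21 of actin and SRF targets (23.8%), against 1.63% of 32851 promoters. A CRE (TGACGTCA) was in 2 of the 25 immediate early promoters and in 1.79% of all. None of the other motifs searched matched in the promoters printed here. Several genes have more than 1 promoter in the table (25 promoters of 19 immediate early genes). Of the 6 immediate early promoters with a CArG box, 4 belong to Egr2. The actin list was written to hold SRF targets, so its CArG share is no test of the motif. Promoter shares here and below count all list members with a promoter, whether or not they rose. A match describes the letters and says nothing about binding.

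Actin cytoskeleton and SRF targets rose in 19 of 21 members, with none lower and a median of 2.35. Actg1, cytoplasmic gamma actin, stood at 109, 90.7 and 66.4 CPM in S1, K4 and Q1, 2883 CPM in C2, 3325 CPM in L4 and 111 CPM in C3 (log2 fold change 5.13 ± 0.30, adjusted p = 3.12e-06). Actb, beta actin, had 237, 314 and 154 CPM in S1, K4 and Q1, 2531 CPM in C2, 3466 CPM in L4 and 228 CPM in C3 (log2 fold change 3.68 ± 0.30, adjusted p = 2.16e-05). The coding sequences of these actins are close to each other, so reads may be split between them. Zyx, the focal adhesion protein zyxin, rose by 3.65 ± 0.26 and Fhl2, a LIM domain cofactor, by 4.15 ± 0.58 log2 units. C3 lay inside the saline range in Actb, Zyx and Fhl2 and just above it in Actg1. Of YAP and TAZ targets 5 of 12 rose and none fell, 3 without L4. Ankrd1 had 0.544, 0.356 and 0 CPM in S1, K4 and Q1, 8.23 CPM in C2, 14.7 CPM in L4 and 0.328 CPM in C3 (log2 fold change 5.14 ± 0.65, adjusted p = 0.000315) and F3, tissue factor, rose by 2.83 ± 0.40.

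Keratins and ductal factors rose in 11 of 17 members and 1 fell, 0 without L4 (median 1.71). Krt8 and Krt18 pair as the keratin filament of simple epithelia. Krt8 (GRCm38 chromosome 15, 101996698 to 102004482, minus strand) stood at 130.4, 68.0 and 121 CPM in S1, K4 and Q1, 4503 CPM in C2, 3569 CPM in L4 and 157 CPM in C3 (log2 fold change 5.25 ± 0.33, adjusted p = 4.76e-06). Krt18 had 149, 83.5 and 133 CPM in S1, K4 and Q1, 2569 CPM in C2, 2201 CPM in L4 and 170.2 CPM in C3 (log2 fold change 4.29 ± 0.30, adjusted p = 9.07e-06). C2 and L4 were far above every saline library in both, and C3 was slightly above them. Epcam, an epithelial adhesion molecule, rose by 3.35 ± 0.30 log2 units. Krt20 was at 0 to 0.0890 CPM in saline, 0.141 CPM in C3 and 2.19 CPM in C2 and 1.12 CPM in L4. The tight junction and connexin list had 9 of 15 members higher and none lower (median 1.23). Cldn4, a claudin of tight epithelia, stood at 1.26, 0.623 and 0.834 CPM in S1, K4 and Q1, 70.6 CPM in C2, 19.4 CPM in L4 and 0.656 CPM in C3, so C2 was above L4. Gjb2, connexin 26, rose by 3.83 ± 0.34 log2 units.

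Hbegf and Btc, ligands of the EGF receptor, and the receptor itself rose. Hbegf, heparin-binding EGF, stood at 2.34, 2.00 and 2.26 CPM in S1, K4 and Q1, 313 CPM in C2, 264 CPM in L4 and 3.09 CPM in C3 (log2 fold change 7.03 ± 0.30, adjusted p = 1.37e-06). Btc, betacellulin, had 0.502, 0.579 and 0.357 CPM in S1, K4 and Q1, 11.6 CPM in C2, 32.0 CPM in L4 and 0.891 CPM in C3 (log2 fold change 5.47 ± 0.57, adjusted p = 0.000121). Egfr, their receptor, had 19.7, 16.4 and 15.0 CPM in S1, K4 and Q1, 76.4 CPM in C2, 162 CPM in L4 and 14.8 CPM in C3 (log2 fold change 2.80 ± 0.27, adjusted p = 5.72e-05). C3 was slightly above the saline range in Hbegf and Btc and slightly below it in Egfr. Of 9 tested members of the list 4 rose and 1 fell, 2 without S1.

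The integrated stress response, in which phosphorylation of eIF2 alpha raises ATF4 translation, rose in 21 of 22 members with none lower (median 1.99). The same list had a median of 1.55 with C3 kept. Chac1, a glutathione-degrading enzyme and ATF4 target (GRCm38 chromosome 2, 119351229 to 119354381, plus strand), stood at 10.1, 7.52 and 21.3 CPM in S1, K4 and Q1, 1938 CPM in C2, 2325 CPM in L4 and 8.86 CPM in C3 (log2 fold change 7.37 ± 0.56, adjusted p = 1.88e-05). Sesn2, sestrin 2, had 3.05, 5.03 and 4.41 CPM in S1, K4 and Q1, 169 CPM in C2, 225 CPM in L4 and 2.48 CPM in C3 (log2 fold change 5.57 ± 0.29, adjusted p = 1.61e-06). Trib3, a pseudokinase that dampens ATF4 signalling, had 2.51, 2.31 and 5.54 CPM in S1, K4 and Q1, 95.1 CPM in C2, 74.1 CPM in L4 and 2.44 CPM in C3 (log2 fold change 4.63 ± 0.50, adjusted p = 0.000150). Stc2, stanniocalcin 2, rose by 3.45 ± 0.29 log2 units. C3 was inside the saline range in Chac1, Trib3 and Stc2 and below it in Sesn2. Of 20 cytosolic tRNA synthetases, many of them ATF4 targets, 13 rose and none fell (median 1.03). Rars had 20.9, 23.3 and 21.1 CPM in S1, K4 and Q1, 97.3 CPM in C2, 89.5 CPM in L4 and 21.2 CPM in C3 (log2 fold change 2.10 ± 0.15, adjusted p = 1.08e-05) and Nars rose by 1.98 ± 0.19, Gars by 1.81 ± 0.23 and Cars by 1.66 ± 0.23.

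The Chac1 promoter is shown because Chac1 rose most of this list and its upstream 250 bases hold a C/EBP-ATF element, TGATGNAA, here on the opposite strand and in capitals. The stretch is chr2:119350992-119351241 on the plus strand, and the match begins 193 bases before the start.
Chac1: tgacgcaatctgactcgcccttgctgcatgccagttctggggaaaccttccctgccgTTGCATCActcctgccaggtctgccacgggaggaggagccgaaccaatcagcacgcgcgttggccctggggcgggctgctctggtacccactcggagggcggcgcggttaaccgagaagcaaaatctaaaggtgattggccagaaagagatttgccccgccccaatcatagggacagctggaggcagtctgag
TGATGNAA was in 5 of 23 promoters of 20 integrated stress response genes (21.7%) and 5 of 12 of tRNA synthetases (41.7%), against 3.97% of all promoters in the table. It was also in 4 of 23 promoters of digestive enzyme genes (17.4%), a list that mostly did not rise.

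Heat shock proteins rose in 14 of 18 members and 1 fell, 0 without L4 (median 1.03). Hspa1a, an inducible HSP70, stood at 0.586, 0.267 and 0.357 CPM in S1, K4 and Q1, 9.51 CPM in C2, 12.4 CPM in L4 and 0.328 CPM in C3 (log2 fold change 4.73 ± 0.45, adjusted p = 5.62e-05). Hspa1b, its near-identical copy, had 1.26, 1.38 and 0.893 CPM in S1, K4 and Q1, 12.2 CPM in C2, 12.8 CPM in L4 and 0.891 CPM in C3, and reads may be split between these genes. Hsp90aa1, an inducible HSP90, had 67.8, 79.0 and 60.5 CPM in S1, K4 and Q1, 208 CPM in C2, 261 CPM in L4 and 73.3 CPM in C3 (log2 fold change 1.77 ± 0.18, adjusted p = 7.16e-05), and Hspa8, constitutive HSC70, rose by 1.58 ± 0.22. C3 was inside the saline range in Hspa1a, Hsp90aa1 and Hspa8 and at its lower edge in Hspa1b. The upstream 250 bases of Hspa1a (chr17:34972157-34972406, minus strand) are shown because they hold the core of a heat shock element, GAANNTTC, in capitals, which begins 104 bases before the start.
Hspa1a: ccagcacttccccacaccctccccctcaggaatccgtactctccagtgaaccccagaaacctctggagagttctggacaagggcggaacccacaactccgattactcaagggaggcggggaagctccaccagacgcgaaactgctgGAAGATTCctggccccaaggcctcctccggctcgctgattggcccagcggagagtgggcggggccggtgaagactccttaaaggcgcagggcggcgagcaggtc
That core was in 11 of 18 promoters of 13 heat shock genes (61.1%), against 7.86% of all promoters. AP-1 sites, TGANTCA, were in 7.81% of all and in 8 of 23 promoters of the cytokine, chemokine and NF-kB feedback list (34.8%). Most genes of that list did not pass.

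NRF2 targets and glutathione synthesis rose in 8 of 15 members and fell in 2, or 1 without L4, Q1 or S1 (median 1.40). NRF2 is the factor that answers oxidative and electrophile stress. Gclc, the catalytic subunit of the first enzyme of glutathione synthesis, stood at 16.0, 20.7 and 23.5 CPM in S1, K4 and Q1, 1227 CPM in C2, 675 CPM in L4 and 32.3 CPM in C3 (log2 fold change 5.57 ± 0.34, adjusted p = 4.44e-06). C3 was above each saline library but far below C2 and L4. Srxn1, sulfiredoxin, had 3.35, 5.12 and 1.79 CPM in S1, K4 and Q1, 106 CPM in C2, 290.3 CPM in L4 and 3.09 CPM in C3 (log2 fold change 5.84 ± 0.58, adjusted p = 9.37e-05), and Slc7a11, the cystine importer, 4.35, 4.18 and 2.50 CPM in S1, K4 and Q1, 120.3 CPM in C2, 159 CPM in L4 and 2.53 CPM in C3 (log2 fold change 5.24 ± 0.38, adjusted p = 1.22e-05). Osgin1, a known NRF2 target, rose by 2.85 ± 0.43 log2 units.

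Chaperones and ER quality control moved in different directions. Of 27 members 3 rose and 8 fell, with 3 falling without C2 and 4 without L4 or Q1. The median was -0.30, and it was -0.14 without C2 and -0.55 without L4. Hspa5, the ER chaperone BiP, had 414, 467 and 722 CPM in S1, K4 and Q1, 1696 CPM in C2, 1719 CPM in L4 and 415 CPM in C3 (log2 fold change 1.68 ± 0.23, adjusted p = 0.000449). Ern1, the IRE1 sensor, rose by 1.43 ± 0.19 log2 units. Sel1l, the adaptor of ER-associated degradation, stood at 675, 627 and 1066 CPM in S1, K4 and Q1, 98.5 CPM in C2, 109 CPM in L4 and 746 CPM in C3 (log2 fold change -2.93 ± 0.28, adjusted p = 5.06e-05), and C3 lay inside saline. Sdf2l1, an ER chaperone cofactor, changed by -1.17 ± 0.34 log2 units, and its call was lost without C2 (adjusted p = 0.0849) or Q1 (0.0717). In the translocon and ER-Golgi transport list 3 of 24 members rose, a share below that of all genes, and 4 fell. Sec24d, a COPII coat subunit, rose by 1.05 ± 0.18, while Sec62 had -1.05 ± 0.21 and Tmed10 -0.70 ± 0.14 log2 units. Without L4 the counts of that list were 1 and 2.

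Most digestive enzymes did not pass. Of 30 members 2 rose and 8 fell, with a median of -0.61 without C3 and -0.38 with all 6 libraries. The count that fell depended on single libraries. It was 5 without C2 or Q1, 3 without L4 and 15 without K4, 14 under the scaling that ignores the 50 most abundant genes, 17 with DESeq2 and 4 with the labelled-knockout libraries alone. The count that rose was 1 without C2, L4, K4 or S1. Rnase1, a secretory ribonuclease, stood at 17885, 16063 and 21553 CPM in S1, K4 and Q1, 6478 CPM in C2, 5783 CPM in L4 and 16289.9 CPM in C3 (log2 fold change -1.59 ± 0.23, adjusted p = 0.000524). Clps, the cofactor of pancreatic lipase, had 17827, 19032 and 28045 CPM in S1, K4 and Q1, 7383 CPM in C2, 7918 CPM in L4 and 19765 CPM in C3 (log2 fold change -1.50 ± 0.25, adjusted p = 0.00147). In both the groups did not overlap and C3 was inside saline. Ctrc, a chymotrypsin that limits trypsin, had a log2 fold change of -1.45 ± 0.33 and Zg16, a zymogen granule lectin, one of -1.28 ± 0.22. Cpb1, Cpa1, Ctrl and Pnliprp1 also fell, with -0.74 ± 0.20, -0.68 ± 0.21, -0.80 ± 0.24 and -0.61 ± 0.19 log2 units. These last calls rested on single libraries. All 4 were lost without C2 (adjusted p 0.0547 to 0.173) or L4 (0.101 to 0.168), Cpa1, Ctrl and Pnliprp1 without Q1 (0.0700 to 0.0725), and Ctrl and Pnliprp1 without S1 (0.0714 and 0.0759). Ctrc was lost without L4 (0.0825). Prss1, given above, and Prss3, both trypsinogen genes, rose. Prss3 had 175, 93.0 and 257 CPM in S1, K4 and Q1, 438 CPM in C2, 588 CPM in L4 and 162 CPM in C3 (log2 fold change 1.55 ± 0.47, adjusted p = 0.0306), and its call was lost without C2 (0.0610), L4 (0.158), K4 (0.0795) or S1 (0.0745). The trypsinogen genes are near-copies and counts may be split between them. The amylases Amy2a5 and Amy2b had -1.43 ± 0.59 and -1.06 ± 0.42 (adjusted p = 0.0978 and 0.0840), with C2 below L4 in Amy2a5 and above it in Amy2b.

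**Figure D4:**
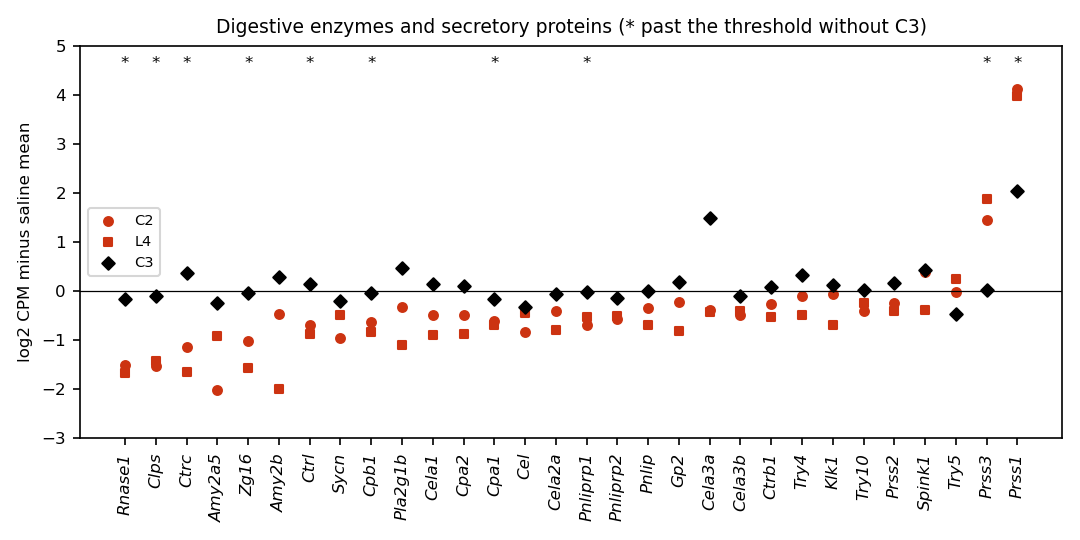
Difference of log2 CPM from the saline mean for 30 digestive enzymes and secretory proteins in C2 (red circles), L4 (red squares) and C3 (black diamonds), ordered by fold change, with stars over the 10 members past the threshold without C3. C3 lies between -0.48 and 0.46 for every member but Cela3a (1.49) and Prss1 (2.03).

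Cela3a had C3 at 50.2 CPM, saline at 13.8 to 28.2 CPM and C2 and L4 at 13.7 and 13.3 CPM. It was singled out after its values were seen. Its fold change without C3 was -0.48 ± 0.31 log2 units (adjusted p = 0.272).

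The acinar transcription factors had 7 of 14 members lower and 1 higher (median -0.64). The count lower was 4 without L4, and the count higher 0 without C2, L4 or K4. Rbpjl, the acinar partner of PTF1A, stood at 209.9, 231 and 306 CPM in S1, K4 and Q1, 78.2 CPM in C2, 76.3 CPM in L4 and 262 CPM in C3 (log2 fold change -1.69 ± 0.27, adjusted p = 0.000931). Nr5a2, a nuclear receptor of acinar identity, had 34.8, 27.9 and 36.1 CPM in S1, K4 and Q1, 17.7 CPM in C2, 10.5 CPM in L4 and 50.0 CPM in C3 (log2 fold change -1.23 ± 0.22, adjusted p = 0.00220). C3 was above all saline libraries there and C2 and L4 below them. Bhlha15 (MIST1), which shapes secretory architecture, changed by -1.43 ± 0.37 log2 units, lost without C2 (adjusted p = 0.107). Onecut1 was low throughout (1.34 to 2.68 CPM in saline) and its change of -2.57 ± 0.65 log2 units was lost without L4 (0.108). Of 13 tested genes of zymogen granule exocytosis, Stx3, a granule and apical syntaxin, alone passed, with 3 genes passing without C2. It had 8.79, 6.32 and 8.22 CPM in S1, K4 and Q1, 43.2 CPM in C2, 43.4 CPM in L4 and 9.28 CPM in C3 (log2 fold change 2.48 ± 0.23, adjusted p = 4.08e-05).

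The Reg genes encode secreted lectins induced in injured pancreas. They varied widely between saline libraries. Reg3g stood at 738, 65.9 and 106 CPM in S1, K4 and Q1, 8.91 CPM in C2, 3.98 CPM in L4 and 888 CPM in C3, so S1 and C3 were high together. Its log2 fold change was -5.56 ± 1.60 without C3 (adjusted p = 0.0279) and -0.01 ± 1.65 with all 6 libraries (adjusted p = 0.996). The call was lost without C2 (0.119), L4 (0.184) or S1 (0.0578). No other of the 6 members passed, and 2 did without K4. The median was -1.67, and it was -3.82 without C2, -1.10 without L4 and -0.79 without S1.

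Fatty acid oxidation and acinar amino acid metabolism were the programmes with most members lower. Fatty acid oxidation fell in 13 of 18 members and none rose (median -1.07), with 7 lower without L4. Hadhb, a subunit of the mitochondrial trifunctional protein, had 21.2, 25.2 and 24.6 CPM in S1, K4 and Q1, 7.66 CPM in C2, 6.01 CPM in L4 and 22.7 CPM in C3 (log2 fold change -1.79 ± 0.19, adjusted p = 9.19e-05). Ehhadh, a peroxisomal enzyme of fatty acid oxidation, fell by 1.66 on the log2 scale (SE 0.26). Ppara, the receptor that drives these genes, changed by -2.92 ± 0.71 log2 units, and its adjusted p without L4 was 0.0936. In acinar amino acid metabolism 7 of 12 fell and 3 rose. The count lower was 6 with the labelled-knockout libraries alone and 5 with no filter. Glul, glutamine synthetase, changed by -1.88 ± 0.49 (0.121 without L4), while Got1, aspartate aminotransferase, rose from 8.46 to 12.7 CPM in saline to 67.9 CPM in C2 and 56.0 CPM in L4 (log2 fold change 2.50 ± 0.24, adjusted p = 5.54e-05). Cth, of transsulfuration, rose by 1.92 ± 0.29 and Bcat1 by 3.54 ± 0.61 log2 units.

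Selenoprotein synthesis held a large fall. Sephs2, which makes the selenium donor (GRCm38 chromosome 7, 127271879 to 127274055, minus strand), stood at 97.6, 90.7 and 112 CPM in S1, K4 and Q1, 5.96 CPM in C2, 4.99 CPM in L4 and 107 CPM in C3 (log2 fold change -4.19 ± 0.20, adjusted p = 1.59e-06). The groups did not overlap and C3 lay inside saline. Pstk, which acts in the same tRNA pathway, fell by 1.84 on the log2 scale (SE 0.33), and its C3 level (1.31 CPM) was also below saline (2.01 to 2.94 CPM). Of 9 members 3 fell and 1 rose, 0 without C2. Cholesterol genes had 8 of 20 higher and 2 lower (0 without L4, 1 without C2, K4 or Q1), with Msmo1 and Sqle of sterol synthesis up by 2.30 ± 0.29 and 1.77 ± 0.18 log2 units.

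Ribosome biogenesis rose in 20 of 24 members with none lower (median 0.86). Nop58, a core protein of box C/D snoRNPs, had 29.2, 20.0 and 21.7 CPM in S1, K4 and Q1, 114 CPM in C2, 111 CPM in L4 and 29.3 CPM in C3 (log2 fold change 2.26 ± 0.31, adjusted p = 0.000408) and Rrp12 rose by 2.00 ± 0.15. C3 was above the saline range in both. The cytosolic ribosomal proteins gave another picture. None of 25 passed, and the 2 most abundant, Rpl4 and Rplp0, had -0.19 ± 0.19 and -0.13 ± 0.21 log2 units. Of 31 proteasome subunits 4 rose, a share below that of all genes, and none fell. Their median was 0.06, and it turned to -0.04 without C2, -0.02 without Q1 and -0.06 under the scaling without the 50 most abundant genes. Psmd8, a subunit of the regulatory particle, had 47.1, 31.2 and 39.8 CPM in S1, K4 and Q1, 182 CPM in C2, 148 CPM in L4 and 44.2 CPM in C3 (log2 fold change 2.07 ± 0.22, adjusted p = 9.28e-05).

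Of 20 autophagy and lysosome genes 8 rose, but the median of the list was -0.06. Lower were 2, or 5 with DESeq2 or under the scaling that ignores the 50 most abundant genes. The 2 that fell are near the share of all genes (1 without C2, L4, Q1 or S1, 4 without K4). Vmp1, an ER protein needed for autophagosome formation, had 34.6, 26.6 and 25.5 CPM in S1, K4 and Q1, 135 CPM in C2, 123 CPM in L4 and 31.3 CPM in C3 (log2 fold change 2.16 ± 0.26, adjusted p = 0.000169). Sqstm1, the cargo receptor p62, rose by 2.07 ± 0.23 log2 units. The lysosomal proteases Ctsl and Ctsb, of which cathepsin B is known to activate trypsinogen, rose by 2.04 ± 0.34 and 1.89 ± 0.36 log2 units. In the p53, growth arrest and Bcl2 family list 8 of 16 rose and 2 fell, 1 without C2 or Q1. Gadd45a had 1.26, 0.979 and 0.179 CPM in S1, K4 and Q1, 33.1 CPM in C2, 51.1 CPM in L4 and 0.562 CPM in C3 (log2 fold change 5.64 ± 0.67, adjusted p = 0.000281). Cdkn1a, the cell cycle inhibitor p21, had 66.1, 14.9 and 23.5 CPM in S1, K4 and Q1, 345 CPM in C2, 347 CPM in L4 and 25.7 CPM in C3 (log2 fold change 3.31 ± 0.56, adjusted p = 0.00183), and S1 was highest of the saline libraries.

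Circadian outputs differed between saline libraries. Dbp, a clock output factor, stood at 1.72, 43.3 and 28.1 CPM in S1, K4 and Q1, 1.02 CPM in C2, 1.48 CPM in L4 and 12.8 CPM in C3. S1 lay just above C2 and L4 and far below K4 and Q1. The fold change was -4.26 ± 1.26 log2 units (adjusted p = 0.0308), and it was lost without C2 (0.168), L4 (0.158), K4 (0.0717) or Q1 (0.0520). Per3 was lost in the same 4 cases. Nfil3, a repressor at the sites that Dbp binds, had 14.7, 4.41 and 3.16 CPM in S1, K4 and Q1, 185 CPM in C2, 263 CPM in L4 and 4.73 CPM in C3 (log2 fold change 4.90 ± 0.69, adjusted p = 0.000742). Of 17 members 4 rose and 5 fell, and without C2, K4 or Q1 none fell and without L4 1.

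Of 23 tested genes of the cytokine, chemokine and NF-kB feedback list, called cytokines below, 4 passed, all higher, a share near that of all genes. The median was 0.29, and it was -0.03 without Q1, 0.50 without C2 and 1.09 without S1. The count was 1 without L4 and 2 without Q1 or S1. Lif, given above, passed in each of these. Ptgs2, Sele and Il11 changed by 2.47 ± 0.79, 3.23 ± 0.82 and 1.84 ± 0.58 log2 units, and each call was lost without L4 (adjusted p = 0.370, 0.0840 and 0.286). That of Ptgs2 was also lost without K4 (0.0893), Q1 (0.0912) or S1 (0.0533), and that of Il11 without Q1 (0.0949) or S1 (0.0949). Summed macrophage markers were 115 to 491 CPM in saline, 276 CPM in C2, 230.4 CPM in L4 and 99.7 CPM in C3, and neutrophil markers 3.69 to 106, 53.3, 26.6 and 5.81 CPM. None of the neutrophil, macrophage or lymphocyte markers passed.

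Of 14 islet markers 6 rose, and the level in L4 stood apart. Their sum was 11922 CPM in L4 against 1375 CPM in C2. Ins1 and Ins2, the insulin genes, stood at 3303 and 6353 CPM in L4 and at 346 and 637 CPM in C2, with saline at 176 to 301 and 369 to 621 CPM and C3 at 98.7 and 217 CPM. Without L4, K4 or S1 none passed, without Q1 1 and without C2 11. The part of islet RNA in other differences was not tested. In wild type none of the 14 passed.

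In wild type, 5583 of all 14733 genes tested passed between cerulein and saline in the same fit without C3, 3133 higher and 2450 lower. Of the 4306 genes that passed here, 3735 did so there in the same direction. That is 86.7% of the calls here and 66.9% of those in wild type. Both comparisons share the filter and the estimate of the spread. Of programmes, 28 of 30 had a median of the same sign in both labels. Rcan1 changed by 7.79 ± 0.38 here and by 7.62 in wild type, Chac1 by 7.37 ± 0.56 and 7.16, Krt8 by 5.25 ± 0.33 and 5.12, and Cckar by -3.77 ± 0.53 log2 units and -4.17. Atf3 itself changed by 6.68 ± 0.66 log2 units and 7.50.

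The difference of the 2 responses was tested directly. Without C3 no gene passed (0.0% higher, 0.0% lower of 14733; 508 genes at an unadjusted p below 0.05, smallest adjusted p 0.999). With all 12 libraries none passed either (0.0% and 0.0% of 14329; 594 genes, smallest adjusted p 0.812), while DESeq2 gave 1 gene with all 12 and 0 without C3. Lrig1, a negative regulator of EGF receptors, was the only gene past the threshold in opposite directions, with -0.67 here and 0.65 in wild type, and a difference of -1.32 (adjusted p = 0.999). A p that misses the threshold does not show that the labels respond alike.

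**Figure D5:**
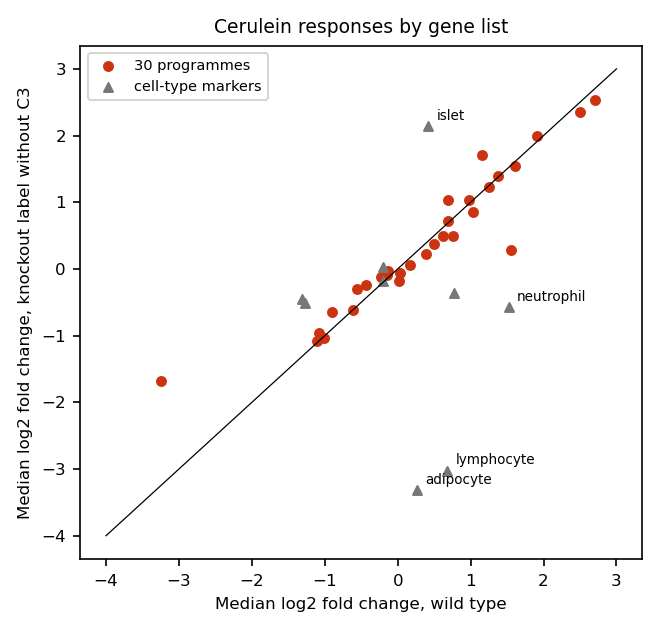
Median log2 fold change of each gene list in wild type (x axis) and in the labelled knockout without C3 (y axis), for 30 programmes (red) and the cell-type marker lists (grey), with a line of equality. Programmes lie along the line, with Reg genes (-3.24 and -1.67) and cytokines (1.55 and 0.29) off it, as are islet, lymphocyte, adipocyte and neutrophil markers.

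Reg genes and cytokines had medians unlike those of wild type, but single libraries moved them. Cytokines had 10 members higher in wild type and 4 here, and a median of 1.55 against 0.29, or 1.09 here without S1. Neutrophil markers had a median of 1.52 in wild type and -0.57 here, and macrophage markers 0.77 and -0.37. Their sums were highest in the wild-type cerulein library N3 (149 and 614 CPM). The part of leucocyte RNA in the cytokine values was not tested. Reg genes had 4 lower in wild type and 1 here, with medians of -3.24 and -1.67, and -3.82 here without C2. Summed adipocyte markers were 697 CPM in K4 against 79.4 and 144 CPM in Q1 and S1, and 57.8 and 75.8 CPM in C2 and L4. No member of these lists passed the test of the difference.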

How the data were processed

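Total RNA of whole pancreas was sequenced in 12 libraries, and the authors deposited whole-number read counts per Ensembl gene, without normalization. Per the labels' protocols, libraries came from a stranded total RNA kit. Per the submitters' processing notes, HTSeq, DESeq2 and the mm10 build were used. The sources used here do not give the aligner, annotation release or strand setting, so reads of overlapping antisense genes cannot be told apart (52 of 130 named genes overlap another annotated gene, 35 of them on the opposite strand). Of 49585 genes, 49326 were matched to GENCODE M21.

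Counts were filtered by filterByExpr on the 4 groups, scaled by TMM and fitted in edgeR 4.0.16 (R 4.3.3) with robust quasi-likelihood and a mean per group, with all 12 libraries and again without C3 (11). The biological coefficient of variation was 0.357 and 0.304. P-values are two-sided and Benjamini-Hochberg adjusted over all genes, called below 0.05. Standard errors were taken from the fold change and the square root of F. DESeq2 1.42.0 and limma 3.58.1 gave alternatives. Tables and figures used Python 3.11.15, pandas 2.3.3, NumPy 2.4.6 and matplotlib 3.10.9. Positions used log2 CPM with a prior count of 2. The fit was also run on simulated data in which every labelled-knockout cerulein library changed alike. That run does not address a cerulein library that resembles saline. Per the series' design, libraries are 3 separate animals a group. No batch, sex or litter is given.

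The comparison, the 41 gene lists (661 members, all found) and the tests were chosen with earlier results of these data known. Named genes are Atf3, any digestive enzyme, the 10 largest rises and 10 largest falls that passed without C3 (mean CPM of at least 1, no overlap between groups, no unnamed gene models), up to 4 members per programme with the largest change (the 2 most abundant where none passed), and 6 genes where C3 lay nearest to C2 and L4. Other list members are named with their values and were chosen after these were seen. A few genes that the rule names are not reported here. Promoters came from the RefSeq table of GRCm38.p6, with 434 of 555 programme genes matched.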

Additional observations from a re-analysis of the deposited data

How the results depend on the processing

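With all 6 libraries, DESeq2 gave 1239 genes higher and 120 lower where edgeR gave 0, leaving out 1 library at a time gave 0 to 2756 higher and 0 to 1550 lower, the highest only without C3, and the other alternatives gave 0. The difference between genotype labels gave 1 gene with DESeq2 on 12 libraries and 0 otherwise. Without C3, the number lower was 942 with the labelled-knockout libraries alone and 858 to 1496 leaving out 1 library at a time, and the number higher 1960 to 2361. Of the 130 named genes without C3, the call was lost for 19 without L4, 12 without C2 (1 of them with its sign turned), 7 without Q1, 6 without K4, 6 without S1, 12 with the labelled-knockout libraries alone, 11 with no filter, 8 with limma-voom and 1 with DESeq2. Cfap53 ran from -0.0102 (without C2) to 5.51 (without S1) on the log2 scale. With all 6 libraries, where no gene passed, the log2 change turned positive for Reg3g with DESeq2 (0.0369), RLE size factors (0.0364), scaling without the 50 most abundant genes (0.000518) and no filter (0.0755). Leaving out 1 library at a time, C3 included, moved Reg3g from -5.56 (without C3) to 1.81 (without S1), Fam13a from -5.35 (without C3) to 0.10 (without L4), Dusp4 from -0.20 (without L4) to 4.08 (without C3), Nr5a2 from -1.23 (without C3) to 0.0390 (without L4), Rpl4 from -0.27 (without K4) to 0.0351 (without Q1) and Rplp0 from -0.25 (without K4) to 0.0238 (without L4). The causes were not tested. With 1 library left in an arm, that library is assumed to vary like the others. No paired analysis was possible because the groups share none of their replicate codes.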
